A study of Mus musculus with 8 samples.

Results

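Selenbp1, Alox12, Ovol1, Hephl1, Ccdc64b, Dmpk and Gng13 are 7 mouse genes whose RNA was lower in hair follicle cells labelled as lacking the BMP receptor gene Bmpr1a than in their controls, in each of 3 cell populations. They were chosen by their measured levels in these libraries: each had to be at least 2-fold lower, on FPKM + 1, in the deleted libraries of all 3 tables of gene expression. FPKM counts sequenced fragments per transcript length and per library, and adding 1 keeps low values from giving extreme ratios, so it understates the change of low genes. Of 20026 gene symbols found in all 3 tables, 10007 had a mean of at least 1 FPKM in each. Of these, 11 (0.11%) met the rule: the 7 genes and Id2, Id3, Msx2 and Gjb5, which were set aside as better known. Because these contrasts chose the genes, their differences are given as a description, with no test.

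The study sequenced RNA of 8 libraries from mice of mixed strain. The first table held hair follicle stem cells (HFSCs) of the bulge, the resting niche of the follicle, from K15-CrePGR mice at day 68 after birth, with 1 library labelled Bmpr1a Het and 1 labelled Bmpr1a cKO. The second held transit-amplifying cells (TACs), the dividing cells of the hair bulb, from Shh-CreER mice at day 68, again with 1 Het and 1 cKO library. The third held hair bulb TACs, again of K15-CrePGR animals, at day 80, with the WT libraries 52 and 57 and the KO libraries 64 and 84. In the design the deleted allele is Bmpr1a fl/fl, a floxed gene removed by an inducible Cre. K15-CrePGR is driven by a keratin promoter of bulge cells, and Shh-CreER by the Shh gene of part of the bulb. The sources used here do not give the dose and time of Cre induction, the number of animals per library or the sorting of cells. Nothing in the labels says that 52, 57, 64 and 84 are separate animals, so a p-value here speaks only of how far these samples spread.

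BMPs are secreted factors that bind receptor pairs including Bmpr1a and pass their signal to the nucleus through Smad proteins, which switch on genes of the Id and Msx families. In the hair follicle, BMP signalling keeps bulge stem cells at rest, and in the bulb it is needed for matrix cells to form the hair shaft and its sheath. The 7 genes have no single known function in common: 3 encode enzymes of sulfur, fatty acid and metal metabolism (Selenbp1, Alox12, Hephl1), 1 a transcription factor (Ovol1), 2 signalling proteins (Dmpk, Gng13) and 1 a transport adaptor (Ccdc64b).

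The labels were checked on the series as a whole. Bmpr1a itself was at 31.8 and 39.3 FPKM in HFSC Het and cKO, 46.0 and 40.4 in Shh-CreER Het and cKO, and between 37.1 and 42.2 in the 4 K15-CrePGR TAC libraries (39.9 and 38.0 in KO). A value over the whole gene does not show whether the floxed part is present, and every direction given here rests on the labels. The bulge keratin Krt15 stood at 7834 and 3075 FPKM in HFSCs and at 62.5 to 341 in the TAC libraries, while the matrix gene Msx1 was at most 1.86 in HFSCs and 8.05 to 64.9 in TACs. All bulge markers summed to 9218 and 3799 in HFSCs, mostly Krt15, and 155 to 659 in TACs. Matrix markers summed to 54.7 and 105 in HFSCs and 619 to 1082 in TACs. Some single markers went the other way. Bulge Lhx2 was at 177 and 167 in HFSCs and 225 in KO 84, and matrix Hoxc13 at 28.7 in HFSC cKO and 14.9 in Shh-CreER cKO. The cornified epidermis markers summed to 16983 FPKM in HFSC Het and 7944 in HFSC cKO, with 10 of the 15 that were kept at least 2-fold lower, and sebaceous gland markers to 767 and 313, with 9 of 12 lower. In Shh-CreER TACs 8 of 12 sebaceous markers were at least 2-fold higher, and melanocyte markers summed to 418 FPKM in Het and 53.1 in cKO. Only 2 of the 6 melanocyte markers kept there were at least 2-fold lower, Gpnmb (322 and 27.8) and Dct (82.9 and 15.8). Tyrp1 was at 2.01 in Het and 2.18 in cKO. Inner root sheath markers summed to 4434 and 4706 FPKM in the K15-CrePGR WT and 1559 and 1369 in the KO libraries, with 6 of 10 lower. Hair shaft keratins summed to 5376 FPKM in Shh-CreER Het against 508 in cKO, and to 2938 and 2444 in the K15-CrePGR WT against 857 and 671 in the KO libraries. KO 64 stood apart in immune markers (1215 FPKM, against 35.0 to 216 in the other 3 libraries) and in fibroblast markers (1508 against 405 to 467). Xist, made by females, was at 68.9 FPKM in HFSC Het and 3.98 in HFSC cKO, so sex and genotype cannot be told apart there. It was at 3.26 in WT 52 and at 175 to 226 in the other K15-CrePGR libraries. Both Shh-CreER libraries held Xist (68.2 and 102) and the Y-linked Ddx3y (10.001 and 14.8). The part of these shifts in the differences of the 7 genes was not tested.

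All 7 genes had a mean of at least 1 FPKM in each table. In HFSCs their log2 differences, cKO minus Het, ran from -1.82 (Selenbp1) to -1.10 (Alox12), with a median of -1.24 against 0.05 over the 12205 genes kept, of which 4.6% were at least 2-fold lower. In Shh-CreER TACs they ran from -2.94 (Selenbp1) to -1.03 (Ovol1), with a median of -2.02 against 0.01 over 12296 genes, of which 2.77% were at least 2-fold lower. In K15-CrePGR TACs the mean differences, KO minus WT, ran from -2.23 (Selenbp1) to -1.21 (Ovol1), with a median of -1.58 against -0.03 over 13565 genes, of which 2.55% were at least 2-fold lower. The rule fixed these counts at 7 of 7. For all 7 genes both KO libraries were below both WT libraries, as they were for 27.5% of all genes kept. The rule used the same libraries and favours such a separation, so it is not separate evidence. The same holds where a difference of these genes is set beside its pooled SD below. In bulk RNA, fewer cells that express a gene and less RNA per cell cannot be told apart. The 3 tables were normalized separately, so levels set side by side across tables, the marker levels above included, are only a rough guide.

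**Figure D1:**
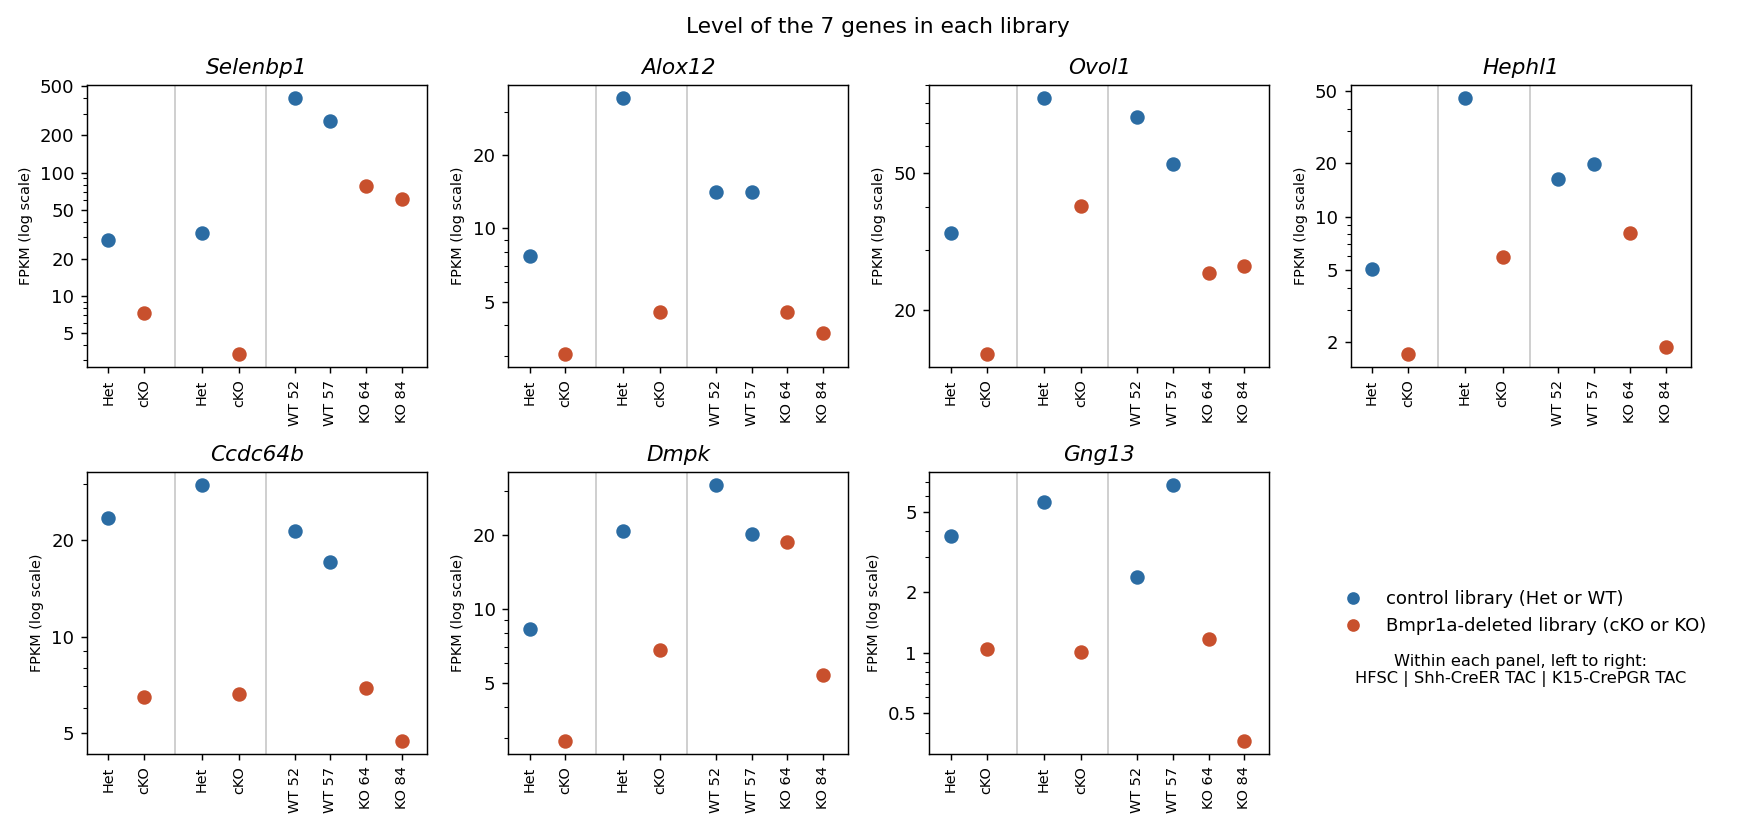
FPKM of each of the 7 genes in the 8 libraries, on a log axis, with 1 point per library and grey lines between the 3 tables. In each panel the libraries labelled cKO or KO (orange) lie below the Het or WT libraries (blue) of the same table; the closest pair is Dmpk in WT 57 (20.2) and KO 64 (18.7).

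The populations differed most for the enzymes. Selenbp1, Alox12 and Hephl1 had larger differences in Shh-CreER TACs (-2.94, -2.68 and -2.76) than in HFSCs (-1.82, -1.10 and -1.17). Ovol1 was the most even, with -1.11 in HFSCs, -1.03 in Shh-CreER TACs and -1.21 in K15-CrePGR TACs. The difference between populations has no replicates in 2 of the tables and was not tested.

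**Figure D2:**
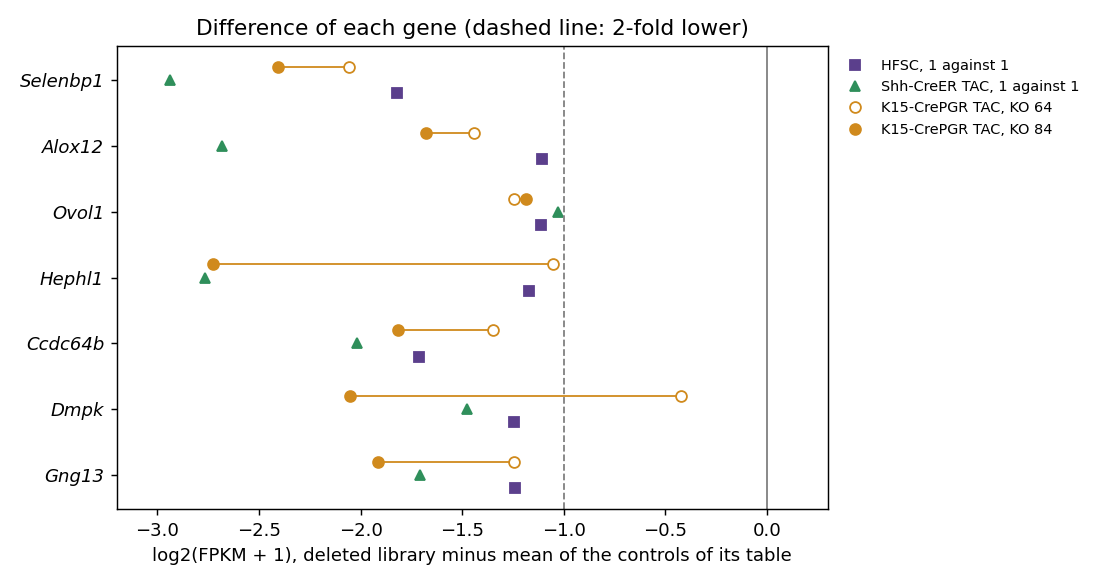
Differences of log2(FPKM + 1) of the 7 genes, with squares for HFSCs, triangles for Shh-CreER TACs and circles for KO 64 (open) and KO 84 (filled) against the mean of the WT libraries. The 2 KO libraries lie closest for Ovol1 (-1.24 and -1.18) and farthest apart for Hephl1 (-1.05 and -2.73) and Dmpk (-0.42 and -2.05), where KO 64 is the nearer to its controls.

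Selenbp1 binds selenium and oxidises methanethiol, a volatile sulfur compound, to hydrogen sulfide and other products. It was at 28.3 FPKM in HFSC Het and 7.29 in HFSC cKO, and at 32.5 in Shh-CreER Het and 3.38 in Shh-CreER cKO. In K15-CrePGR TACs it stood at 404 in WT 52 and 263.5 in WT 57, against 77.7 in KO 64 and 60.8 in KO 84. The cKO library thus held 25.8% of the control level in HFSCs and 10.4% in Shh-CreER TACs, and the KO mean was 20.8% of the WT mean (333.7 ± 99.4 and 69.3 ± 12.0 FPKM, SD, n = 2 each). With a level above 97.9% of the genes kept in the WT libraries, Selenbp1 was the most abundant of the 7 per length in that table. The highest KO value was 29.5% of the lowest WT value, and the mean difference of -2.23 compares with a pooled SD of 0.35 on the same log2 scale.

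The mouse genome holds a close copy of this gene, Selenbp2, and reads of the pair are hard to assign. The reference transcripts of the pair were 98.5% identical (1687 of 1712 aligned bases), and 869 of the 1663 windows of 50 bases in Selenbp1 (52.3%) also occurred in Selenbp2. The split of reads between them is therefore uncertain. Selenbp2 was at 5.26 and 1.53 FPKM in HFSC Het and cKO, and at 155, 84.1, 28.5 and 10.6 in WT 52, WT 57, KO 64 and KO 84 (limma, difference -2.64, adjusted p = 0.161). In Shh-CreER TACs it was at 0.127 in Het and listed at 0 in cKO. Selenbp2 thus amounted to 18.6% and 21.0% of the Selenbp1 level in HFSCs, 0.391% in Shh-CreER Het, and between 17.5% and 38.4% in K15-CrePGR TACs. Summing the pair lessens this uncertainty without removing it, since the sources used here do not say how shared reads were counted. The sum differed by -1.81 in HFSCs, -2.94 in Shh-CreER TACs and -2.33 in K15-CrePGR TACs, close to -1.82, -2.94 and -2.23 for Selenbp1 alone.

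**Figure D3:**
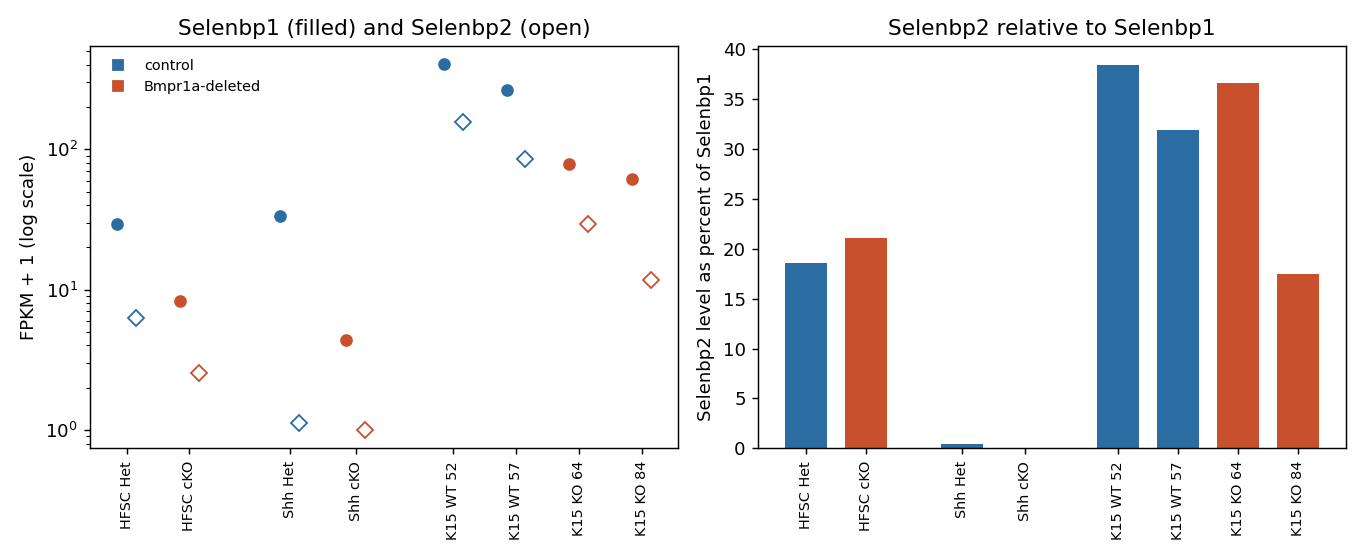
Left, FPKM + 1 of Selenbp1 (filled) and its copy Selenbp2 (open) in the 8 libraries on a log axis, controls in blue and deleted libraries in orange; right, Selenbp2 as a percent of Selenbp1. Both are lower in every deleted library than in its controls, and the share of Selenbp2 is near 0 only in the Shh-CreER libraries.

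The sequences before the start sites of the pair are shown because the copies were at such different levels in the Shh-CreER libraries. Both are the 250 bases before the start in the RefSeq promoter table (build GRCm38.p6, plus strand), Selenbp1 at chr3:94932833-94933082 and Selenbp2 at chr3:94693323-94693572. Capitals mark bases that differ or have no partner in an alignment of the pair, in which 224 of 238 aligned bases were identical (94.1%).
Selenbp1: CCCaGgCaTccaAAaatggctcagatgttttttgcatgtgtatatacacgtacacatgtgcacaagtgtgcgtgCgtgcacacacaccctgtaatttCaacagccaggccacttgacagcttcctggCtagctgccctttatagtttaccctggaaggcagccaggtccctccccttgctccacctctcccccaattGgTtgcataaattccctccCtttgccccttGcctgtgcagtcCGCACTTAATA
Selenbp2: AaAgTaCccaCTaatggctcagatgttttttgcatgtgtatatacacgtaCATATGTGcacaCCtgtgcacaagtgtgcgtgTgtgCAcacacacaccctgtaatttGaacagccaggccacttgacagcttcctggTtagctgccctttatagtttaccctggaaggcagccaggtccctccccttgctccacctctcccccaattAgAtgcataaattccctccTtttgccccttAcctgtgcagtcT
The differences are scattered along the window, and the longest unmatched run lies beside the start of Selenbp1. The windows are offset, with a shared TTTATA 113 bases before the start in Selenbp1 and 103 in Selenbp2. That run therefore lies mostly past the end of the Selenbp2 window, and it does not show that the copies differ there.

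Other enzymes of sulfide and sulfur amino acid oxidation mostly differed by less than 2-fold on FPKM + 1 between deleted and control libraries. Some came near 2-fold in HFSCs. Tst was at 11.7 FPKM in Het and 22.5 in cKO, Cth at 3.55 and 6.86, and Sqrdl at 3.58 and 1.47. Of the 9 genes listed, Selenbp2 included, 8 were kept in HFSCs with 1 at least 2-fold lower (Selenbp2) and 0 higher, 8 in Shh-CreER TACs with 0 either way, and 9 in K15-CrePGR TACs with 1 lower (Selenbp2) and 1 higher. The higher one was Sqrdl, the mitochondrial sulfide oxidase, at 2.45 and 1.47 FPKM in WT against 7.63 and 7.58 in KO (limma, adjusted p = 0.114). Cth, which makes cysteine from cystathionine, was at 36.1 and 46.8 FPKM in WT and 20.6 and 27.5 in KO (adjusted p = 0.233, limma). The medians of the list were 0.18, -0.04 and -0.17 in the 3 tables.

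Alox12 encodes a lipoxygenase that adds oxygen to arachidonic acid and is best known from platelets and skin. It was at 7.69 FPKM in HFSC Het and 3.04 in HFSC cKO, and at 34.4 in Shh-CreER Het and 4.52 in Shh-CreER cKO. Both WT libraries of K15-CrePGR TACs stood at 14.1, with KO 64 at 4.55 and KO 84 at 3.72. The deleted level was 39.5% of control in HFSCs, 13.1% in Shh-CreER TACs and 29.3% in K15-CrePGR TACs. Replicates lay closer together for Alox12 than for the other 6 genes, with a difference of -1.56 against a pooled SD of 0.12 on the log2 scale. Platelet markers summed to 4.4 and 3.5 FPKM in HFSC Het and cKO, with Pf4 listed at 0 in both, and to 27.3, 15.3, 112 and 38.6 in WT 52, WT 57, KO 64 and KO 84. In the Shh-CreER libraries they summed to 56.3 in Het and 25.2 in cKO, nearly all of it Pf4 (54.1 and 23.6), and Gp9 and Tubb1 were listed at 0 in every library. In WT 52, WT 57, KO 64 and KO 84, Pf4 was at 16.2, 2.97, 95.3 and 13.3, highest in the library with the highest immune sum. An entry joining Gp1bb with Sept5 was at 8.10, 7.99, 12.3 and 21.0 there, so those sums are not of platelet genes alone.

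Among the related lipoxygenases the pattern was shared in part. Alox8, which acts on the same fatty acid at another carbon, was at 3.50 and 1.49 FPKM in HFSC Het and cKO and at 35.1 and 3.84 in the Shh-CreER pair. In K15-CrePGR TACs it stood at 22.4 in WT 52, 16.4 in WT 57, 13.4 in KO 64 and 2.97 in KO 84 (limma, adjusted p = 0.351). Alox12b and Aloxe3, which act one after the other to build the water barrier of the epidermis, were at 28.4 and 12.6 FPKM in HFSC Het and 4.36 and 2.57 in HFSC cKO, beside the lower sum of cornified markers in that library. In TACs both were at or below 0.581 FPKM in all 6 libraries. Alox12e, whose locus lies next to Alox12, was at 214 and 215 FPKM in HFSC Het and cKO, and at 20.9, 17.0, 17.5 and 31.1 in WT 52, WT 57, KO 64 and KO 84. Over the 13 lipoxygenase and eicosanoid genes other than Alox12, 5 of 12 kept in HFSCs were at least 2-fold lower (Alox12b, Aloxe3, Alox5, Ptgs2 and Ltc4s) and 1 higher (Ephx2). In Shh-CreER TACs 2 of 10 were lower (Alox8 and Ltc4s) and 0 higher, and in K15-CrePGR TACs 1 of 10 was lower (Alox8) and 6 higher, among them the leukotriene genes Alox5, Alox5ap and Ltc4s that leukocytes also express. All 3 were highest in KO 64, the library with the highest immune sum: Alox5ap was at 144 FPKM there against 7.24 to 38.4 in the other libraries, Alox5 at 4.06 against 0.165 to 1.24, and Ltc4s at 10.6 against 0.314 to 1.25. In KO 84, Alox5 (1.24) was close to WT 52 (1.20) and Ltc4s (0.854) was below it (1.25). In HFSCs, where Alox5 and Ltc4s were lower, the immune markers summed to 304 FPKM in Het and 123 in cKO, with 4 of the 5 kept at least 2-fold lower. The part of immune cells in these differences was not tested. At least 2-fold higher values were found for 5.92% of all genes in HFSCs, 2.67% in Shh-CreER TACs and 10.1% in K15-CrePGR TACs. The list medians were -0.87, -0.15 and 1.15.

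Genes of the lipid barrier of the epidermis were counted separately. Of the 11 kept in HFSCs, 5 were at least 2-fold lower, among them Elovl4, which makes very long fatty acids (219 FPKM in Het and 83.6 in cKO), and Cyp4f39 (26.7 and 9.30). The other 3 were Abca12, Sdr9c7 and Elovl1. In Shh-CreER TACs 1 of 10 was at least 2-fold lower (Smpd1), and in K15-CrePGR TACs 0 of 9 were. No barrier gene was at least 2-fold higher in these 3 tables. The medians were -0.87, -0.26 and -0.17.

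Hephl1, also called zyklopen, is a membrane copper enzyme that oxidises iron, and its loss in mice gives short, curled whiskers. It was at 5.08 FPKM in HFSC Het and 1.70 in HFSC cKO, and at 46.0 in Shh-CreER Het and 5.93 in Shh-CreER cKO. In K15-CrePGR TACs the WT libraries stood at 16.3 (52) and 19.7 (57), and the KO libraries at 8.11 (64) and 1.86 (84). The groups did not overlap, and KO 64 held 49.9% of the lowest WT value, but the 2 KO libraries differed so much that the KO level was 4.99 ± 4.42 FPKM (SD, n = 2) against 18.0 ± 2.44 in WT (SD, n = 2). The mean difference of -1.89 compares with a pooled SD of 0.85 on the log2 scale. Within its table Hephl1 was a low gene in HFSCs, above 24.1% of the genes kept in the control, and a high one in Shh-CreER TACs, above 79.9%.

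The other multicopper ferroxidases had different values. Heph, which oxidises iron leaving gut cells, was at 12.2 and 15.5 FPKM in HFSC Het and cKO, 8.88 and 8.60 in the Shh-CreER pair, and 3.08, 3.96, 5.45 and 4.80 in WT 52, WT 57, KO 64 and KO 84 (limma, adjusted p = 0.348). Cp, the ferroxidase of blood plasma, was below 1 FPKM in both HFSC libraries and at 0.779, 0.664, 8.51 and 1.95 in the 4 K15-CrePGR libraries, with the highest value in KO 64. Slc40a1, the iron exporter that works with these enzymes, was higher in every deleted library: 9.01 and 22.5 FPKM in HFSC Het and cKO, 17.9 and 35.7 in the Shh-CreER pair, and 4.18, 2.70, 23.7 and 52.04 in WT 52, WT 57, KO 64 and KO 84. Its difference of 3.05 (SE 0.43) in K15-CrePGR TACs had an adjusted p of 0.111 by limma. Of the 25 copper and iron genes other than Hephl1, 1 of 18 in HFSCs was at least 2-fold lower (Steap3) and 5 higher (Slc40a1, Steap4, Slc39a14, Atox1 and Loxl2). In Shh-CreER TACs 1 of 22 was lower (Steap1) and 1 higher (Steap4). In K15-CrePGR TACs 0 of 22 were lower and 7 higher (Cp, Slc40a1, Steap3, Steap4, Lox, Loxl1 and Loxl2). Slc40a1 and Steap4 were highest in KO 84. The others were highest in KO 64, the library with the highest fibroblast and immune sums, and the part of those cells was not tested. Lox was at 5.90 FPKM in KO 64, but KO 84 (1.001) was below WT 52 (1.03). The medians of the list were 0.36, 0.04 and 0.38.

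Ovol1 encodes a zinc finger repressor that acts when epidermal and hair cells leave the cell cycle and differentiate. It was at 33.4 FPKM in HFSC Het and 14.9 in HFSC cKO, and at 82.8 in Shh-CreER Het and 40.0 in Shh-CreER cKO. In K15-CrePGR TACs WT 52 stood at 72.8 and WT 57 at 53.2, against 25.7 in KO 64 and 26.8 in KO 84. The deleted level was 44.6%, 48.4% and 41.7% of control in the 3 tables, the most even of the 7 genes, and the 2 KO libraries agreed closely (26.3 ± 0.81 FPKM against 63.0 ± 13.8 in WT, SD, n = 2 each). In the K15-CrePGR table a second entry with the same coordinates joins Ovol1 with Gm962. It was at 6.45 and 5.25 FPKM in WT 52 and 57 and at 3.60 and 2.42 in KO 64 and 84, a difference of -0.78. Of the windows of 50 bases in the Ovol1 transcript 23.0% also occur in other genes, mostly in Gm31166, so the assignment of part of its reads is uncertain.

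Ovol2, its closest relative, was on the opposite side in the TAC tables. It was at 15.3 and 10.4 FPKM in HFSC Het and cKO, at 7.95 and 17.4 in Shh-CreER Het and cKO, and at 1.86, 1.74, 13.8 and 21.5 in WT 52, WT 57, KO 64 and KO 84. The difference of 2.70 (SE 0.26) in K15-CrePGR TACs had an adjusted p of 0.087 by limma, above the threshold of 0.05. The mesenchymal genes that Ovol factors repress were also read: Vim was at 26.4 and 18.2 FPKM in WT and 235 and 70.3 in KO, and Zeb2 at 1.43 and 0.307 in WT and 12.3 and 1.63 in KO. In both, KO 64 was highest, the library with the highest fibroblast and immune sums, and the part of those cells was not tested. Snai2 was nearly as high in KO 84 as in KO 64, at 4.89 and 6.78 FPKM in WT and 18.6 and 15.8 in KO (limma, adjusted p = 0.111). Of the genes listed for Ovol factors, Ovol1 left out, 0 of 9 in HFSCs were at least 2-fold lower and 0 higher. In Shh-CreER TACs 1 of 11 was lower (Grhl1) and 1 higher (Ovol2). In K15-CrePGR TACs 1 of 11 was lower (Myc, at 54.3 and 31.5 FPKM in WT and 23.2 and 12.4 in KO) and 5 higher (Ovol2, Zeb2, Snai2, Twist1 and Vim). The medians were -0.33, -0.09 and 0.15.

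Dmpk encodes a serine/threonine kinase abundant in muscle, and a repeat expansion in the human gene causes myotonic dystrophy. It was at 8.25 FPKM in HFSC Het and 2.91 in HFSC cKO, and at 20.7 in Shh-CreER Het and 6.80 in Shh-CreER cKO. In K15-CrePGR TACs WT 52 stood at 32.0 and WT 57 at 20.2, while KO 64 was at 18.7 and KO 84 at 5.37. The groups only just separated, since KO 64 held 92.7% of the level of WT 57, and the difference of -1.24 compares with a pooled SD of 0.87 on the log2 scale. Leaving out KO 84 gave -0.42, leaving out KO 64 gave -2.05, and leaving out WT 52 gave -0.92. Skeletal muscle markers summed to 196 FPKM in Shh-CreER Het and 38.9 in cKO, with 9 of the 10 kept at least 2-fold lower, and their part in the Shh-CreER difference was not tested. In HFSCs the same markers summed to 5.0 in Het and 5.4 in cKO, and in K15-CrePGR TACs to between 34.3 and 55.0, with 0 of 7 at least 2-fold lower.

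Relatives of Dmpk were at nearly the same level in deleted and control TACs. Cdc42bpa was at 7.40, 6.99, 8.02 and 7.40 FPKM in WT 52, WT 57, KO 64 and KO 84 (limma, adjusted p = 0.787) and Cdc42bpb at 12.2, 13.0, 14.4 and 12.0 (adjusted p = 0.871, limma). Cdc42bpg was at 63.2 and 33.6 FPKM in HFSC Het and cKO, and at 27.3 and 27.7 in the Shh-CreER pair.

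The Dmpk locus also carries the microRNA gene Mir3100, which the K15-CrePGR table lists with the same coordinates (mm9, chr7:19669197-19679170). Mir3100 stood at 229.6 FPKM in WT 52 and 205.4 in WT 57 and was listed at 0 in KO 64 and KO 84 (limma, adjusted p = 0.00115). In the other tables it was at 0.274 in HFSC Het and 0.532 in Shh-CreER Het, and listed at 0 in both cKO libraries. Reads of Mir3100 and of Dmpk cannot be told apart at a shared locus, so the entry is uncertain, and it does not measure the mature microRNA. The mature sequences are shown because they name what the entry stands for. They are from RefSeq (GRCm38.p6, plus strand), at chr7:19086828-19086850 for the 5p arm and chr7:19086872-19086892 for the 3p arm, with capitals for the seed, bases 2 to 8.
mmu-miR-3100-5p: uUGGGAACggggugucuuuggga
mmu-miR-3100-3p: cUGUGACAcacccgcucccag
The arms do not share a seed.

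Gng13 encodes a gamma subunit of heterotrimeric G proteins, known from taste, olfactory and retinal cells, where it works with gustducin and other alpha subunits. It was the lowest of the 7 genes, at 3.82 FPKM in HFSC Het and 1.04 in HFSC cKO, and at 5.58 in Shh-CreER Het and 1.01 in Shh-CreER cKO. In K15-CrePGR TACs it stood at 2.37 in WT 52 and 6.83 in WT 57, against 1.17 in KO 64 and 0.365 in KO 84. WT 57 was far above WT 52, and the 4.60 ± 3.15 FPKM in WT and 0.768 ± 0.57 in KO (SD, n = 2 each) varied widely within each group. Without WT 57 the difference of -1.58 became -0.97, and without WT 52 it became -2.19. From the depths estimated for the other tables, its values rest on about 153 and 35.6 fragments in HFSC Het and cKO and 115 and 20.9 in Shh-CreER Het and cKO. Gng13 overlaps Chtf18, a gene of DNA replication, and 46.4% of the windows of 50 bases in its transcript also occur there. Chtf18 was at 14.2, 21.9, 11.1 and 15.9 FPKM in WT 52, WT 57, KO 64 and KO 84 (limma, difference -0.39, adjusted p = 0.508), and at 1.76 and 2.80 in HFSC Het and cKO. The sources used here do not say whether reads were counted by strand, so reads of the pair cannot be told apart where they overlap.

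Taste and tuft cell markers were read because Gng13 is known from those cells. Gnat3, the alpha subunit gustducin, was at 0.0299 FPKM in Shh-CreER Het and listed at 0 in the other 7 libraries, and Trpm5 was at most 0.245 in any library. The sum of the list was carried mostly by Itpr3 and Pou2f3. It stood at 208.5 FPKM in HFSC Het and 98.2 in cKO, and at 28.8 and 42.7 in the Shh-CreER pair. In WT 52, WT 57, KO 64 and KO 84 it was 33.5, 32.9, 49.5 and 65.1. Chat added 48.9 and 8.23 in HFSC Het and cKO but was at most 0.112 in TACs. Other gamma subunits were more abundant. Gng5 was at 203 and 267 FPKM in HFSCs, at 39.1 and 23.8 in the Shh-CreER pair, and at 85.9 in both WT against 67.4 and 50.7 in the KO libraries (limma, adjusted p = 0.273). Gng12 was at 35.5, 34.6, 35.4 and 37.0 FPKM in the 4 K15-CrePGR libraries (adjusted p = 0.887, limma). Of the beta and gamma subunits other than Gng13, 1 of 9 in HFSCs (Gng4), 0 of 12 in Shh-CreER TACs and 0 of 11 in K15-CrePGR TACs were at least 2-fold lower, against 0, 0 and 2 higher (Gng11 and Gngt2). The alpha subunits held 0 at least 2-fold lower in the 3 tables, and 1 of 10 higher in K15-CrePGR TACs (Gna14). The medians were 0.25, -0.06 and 0.11 for beta and gamma and 0.05, 0.07 and 0.22 for alpha subunits.

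Ccdc64b, also called Bicdl2, encodes a protein related to the Bicaudal D adaptors, which couple cargo vesicles to the dynein motor. It was at 23.5 FPKM in HFSC Het and 6.46 in HFSC cKO, and at 29.8 in Shh-CreER Het and 6.62 in Shh-CreER cKO. In K15-CrePGR TACs WT 52 stood at 21.3 and WT 57 at 17.1, against 6.92 in KO 64 and 4.73 in KO 84. The deleted level was 27.5%, 22.2% and 30.3% of control in the 3 tables. Both KO libraries were well apart from both WT libraries (5.82 ± 1.55 and 19.2 ± 2.97 FPKM, SD, n = 2 each), with a difference of -1.58 against a pooled SD of 0.28 on the log2 scale. None of its windows of 50 bases occurred in another gene.

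Its relative Ccdc64 was lower in HFSCs, at 17.4 FPKM in Het and 5.35 in cKO, but was at 1.80 and 2.17 in Shh-CreER Het and cKO and at 4.87, 5.94, 5.16 and 8.41 in WT 52, WT 57, KO 64 and KO 84 (limma, adjusted p = 0.640). Bicd2 was at 72.1 and 53.7 FPKM in HFSC Het and cKO and between 18.5 and 21.6 in the K15-CrePGR libraries (adjusted p = 0.824, limma). Among the adaptors and subunits of dynein and dynactin listed, 1 of 18 in HFSCs was at least 2-fold lower, and that 1 was Ccdc64. In Shh-CreER TACs 0 of 18 were lower and 1 higher (Nin), and in K15-CrePGR TACs 0 of 19 were lower and 0 higher. The medians were -0.02, 0.06 and 0.04.

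Genes known to respond to BMP signalling were read in the same libraries. Of the 14 kept in HFSCs 8 were at least 2-fold lower and 1 higher (Id4), of 12 in Shh-CreER TACs 7 were lower and 0 higher, and of 12 in K15-CrePGR TACs 4 were lower (Id2, Id3, Msx1 and Msx2) and 0 higher, with medians of -1.06, -1.10 and -0.80. Id2, Id3 and Msx2 met the same rule as the 7 genes in every table, so their falls are not a separate reading. The K15-CrePGR difference of Msx1 rests on KO 84, at 14.7 FPKM, since KO 64 (54.2) was above WT 57 (51.8) and below WT 52 (64.9). Id3, an inhibitor of differentiation factors, was at 447 and 116 FPKM in HFSC Het and cKO, 562 and 221 in the Shh-CreER pair, and 573, 315, 184 and 112 in WT 52, WT 57, KO 64 and KO 84 (limma, adjusted p = 0.206). Over the 130 genes of the 10 pathway lists kept in K15-CrePGR TACs, limma called 0 at an adjusted p under 0.05, while 13 were lower and 14 higher at an unadjusted p under 0.05. Over all genes kept it called 4 lower (0.0295%) and 5 higher (0.0369%), with 961 lower and 1397 higher at an unadjusted p under 0.05.

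**Figure D4:**
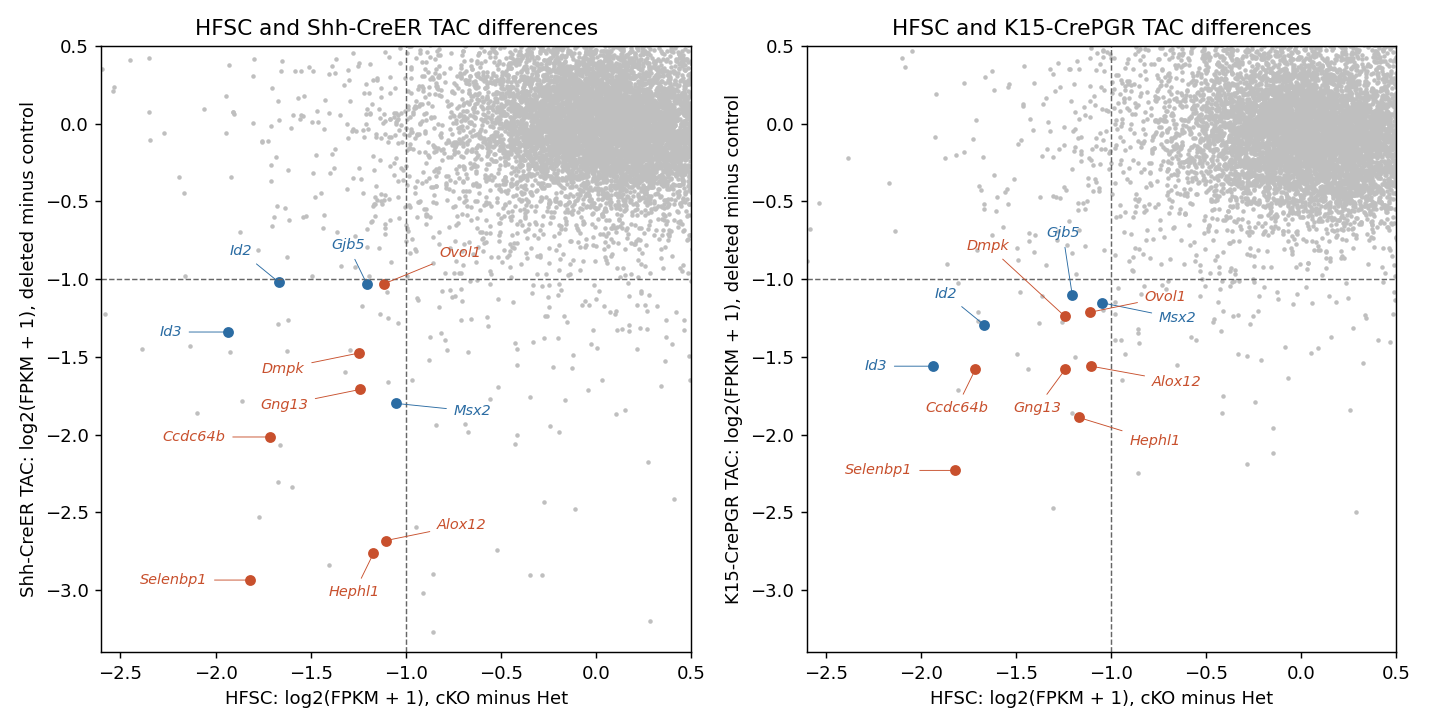
Differences of the 10007 genes kept in all 3 tables, HFSCs on the horizontal axis against Shh-CreER TACs (left) or K15-CrePGR TACs (right), in log2(FPKM + 1), with dashed lines at 2-fold lower; genes outside the axes are not drawn. The 7 genes (orange) and Id2, Id3, Msx2 and Gjb5 (blue) are the 11 that lie past the dashed lines of both panels.

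The threshold of 2-fold was close for some of the genes. Just inside it were Id2 and Ovol1, whose smallest differences over the 3 tables were -1.02 and -1.03. Just outside were Odc1, the first enzyme of polyamine synthesis, at -0.96 and Mt4, a metallothionein of stratified epithelia, at -0.95, both in HFSCs. Other genes near the line would enter or leave the set with a small shift of the threshold.

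The genes whose pattern was nearest to each of the 7 were found by the distance between log2(FPKM + 1) values over the 8 libraries, each centred on the mean of its table. The libraries of a table share their normalization, and 0 would mean the same pattern. Alox12 and Ccdc64b were nearest to each other of the pairs among the 7, at 0.69, and Ovol1 and Hephl1 farthest apart, at 1.93. Alox12 was nearest to Mt4 (0.51), Ccdc64b (0.69) and Dapl1 (0.83), and Selenbp1 to Dapl1 (0.86), Ccdc64b (0.95) and Alox12 (0.97). Dapl1, an epithelial gene, was at 2104 FPKM in Shh-CreER Het and 217 in cKO. Hephl1 was nearest to Alox8 (0.74), Psors1c2 (0.85) and S100a3 (0.98), the last a calcium-binding protein of the hair cuticle, at 822 FPKM in Shh-CreER Het and 109 in cKO. Ccdc64b was nearest to Id3 (0.66), Alox12 (0.69) and Msx2 (0.73). The nearest to Dmpk were Odc1 (0.49), Msx2 (0.61) and Cited4 (0.70), those to Ovol1 Svip (0.44), Smagp (0.46) and Serpinb8 (0.47), and those to Gng13 A730090H04Rik (0.65), Gjb5 (1.06) and Alox12 (1.15). The median distance to the 10006 other genes was between 1.75 (Ovol1) and 3.41 (Selenbp1). Genes that met the 2-fold rule fell in every table, so closeness among the 7 genes, Id3, Msx2 and Gjb5 is partly built in. In the HFSC and Shh-CreER tables, centring leaves only the difference between Het and cKO for each gene.

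The 7 genes lie on 6 chromosomes, and the coordinates of the K15-CrePGR table (build mm9) place Selenbp1 at chr3:94736977-94748680, Dmpk at chr7:19669197-19679170, Hephl1 at chr9:14856263-14916586, Alox12 at chr11:70054958-70068855 and Ovol1 at chr19:5531536-5578293. Ccdc64b (chr17:23797489-23805577) and Gng13 (chr17:25854115-25864364) share a chromosome. The loci beside them were mostly less than 2-fold lower in KO. Thoc6, which begins 3 bases from the end of Ccdc64b, was at 58.1, 55.5, 37.0 and 48.8 FPKM in WT 52, WT 57, KO 64 and KO 84, a difference of -0.41 (limma, adjusted p = 0.345). Panx1, 6341 bases from Hephl1, was at 54.9, 61.7, 34.5 and 34.2, a difference of -0.75 (adjusted p = 0.142, limma). Dmwd and Six5, on either side of Dmpk, had differences of 0.20 and 0.72, and Rfx5, next to Selenbp1, of -0.28. The exceptions were the Mir3100 entry and a U6 small nuclear RNA beside Selenbp1, which was at 18.9 FPKM in WT 52 and listed at 0 in the other 3 libraries.

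**Figure D5:**
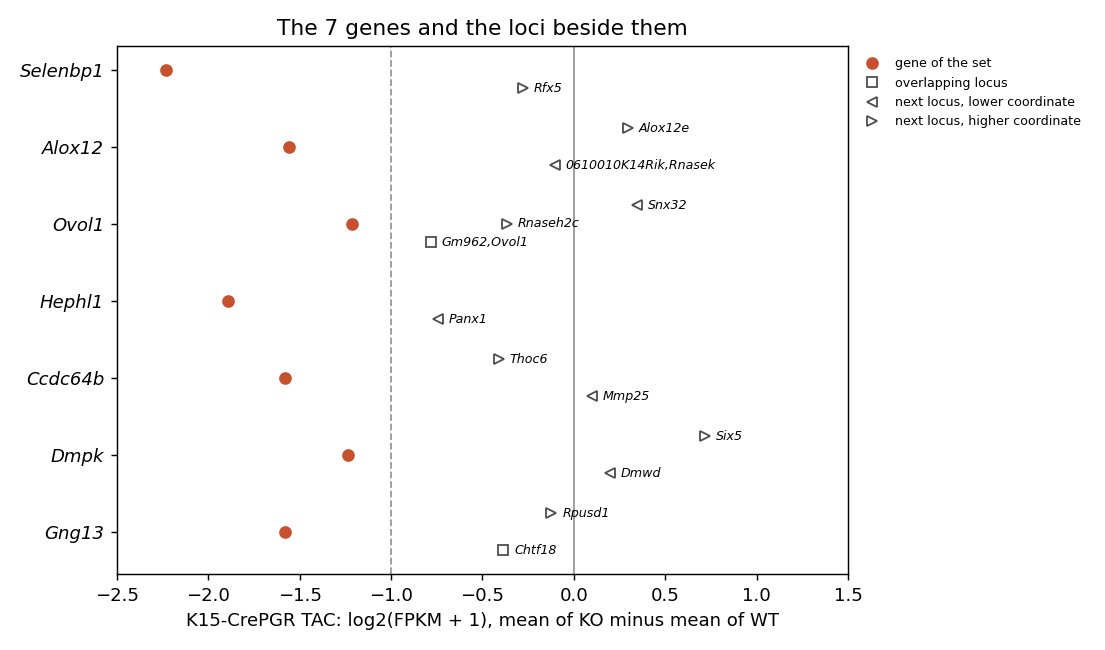
Difference of log2(FPKM + 1), mean of KO minus mean of WT in K15-CrePGR TACs, for each of the 7 genes (orange) and the loci that overlap or flank them (open symbols); the small RNA entries Mir3100, U6 and U1 are not drawn. Every locus drawn beside a gene lies to the right of the line of 2-fold lower, the nearest being the joined Gm962 and Ovol1 entry (-0.78) and Panx1 (-0.75).

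The RefSeq promoter table held 5 of the 7 genes, without Ovol1 and Ccdc64b, and the 250 bases before each start were searched on both strands for short motifs. The first 6 were GGCGCC, which BMP Smads can bind, the Smad palindrome GTCTAGAC, the Lef/Tcf motifs CTTTGAT and CTTTGTT, the OVO motif CCGTTA and the AP-2 motif GCCNNNGGC. They had 0 matches in the 5 genes and Selenbp2, and are found in 9.59%, 0.167%, 3.21%, 5.03%, 2.18% and 13.7% of the 32851 start sites in the table. After the sequences were seen, 2 general motifs were added. The box rich in G and C that Sp factors bind, GGGCGG, was held by 32.7% of start sites. TTTATA, the reverse complement of the core promoter element TATAAA, was held by 12.4%. On the strand of the gene, TTTATA began 113 bases before the start in Selenbp1, 103 in Selenbp2 and 73 in Hephl1. TATAAA thus lay on the opposite strand there, and these matches are not read as core promoter elements. GGGCGG began 55 and 22 bases before the start in Alox12. At the second of the start sites of Gng13 it began at 123 and 118, where the matches overlap, and lay on the other strand at 39. No start site held both. The sequences that carry these matches are printed with the motif in capitals, each 5′ to 3′ on the strand of its gene, for Alox12 (chr11:70255371-70255620, minus strand), Hephl1 (chr9:15112109-15112358, minus strand) and the second start of Gng13 (chr17:25717278-25717527, plus strand), all in GRCm38.p6.
Alox12: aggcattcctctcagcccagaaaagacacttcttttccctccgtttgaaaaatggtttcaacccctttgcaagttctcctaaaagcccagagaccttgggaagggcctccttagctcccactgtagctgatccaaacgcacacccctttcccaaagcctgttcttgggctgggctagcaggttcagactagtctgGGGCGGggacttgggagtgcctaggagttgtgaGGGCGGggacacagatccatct
Hephl1: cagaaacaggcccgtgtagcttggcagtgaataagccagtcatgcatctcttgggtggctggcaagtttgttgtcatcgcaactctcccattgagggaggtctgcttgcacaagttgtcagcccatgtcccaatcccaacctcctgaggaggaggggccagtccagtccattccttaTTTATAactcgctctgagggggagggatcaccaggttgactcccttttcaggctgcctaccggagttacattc
Gng13: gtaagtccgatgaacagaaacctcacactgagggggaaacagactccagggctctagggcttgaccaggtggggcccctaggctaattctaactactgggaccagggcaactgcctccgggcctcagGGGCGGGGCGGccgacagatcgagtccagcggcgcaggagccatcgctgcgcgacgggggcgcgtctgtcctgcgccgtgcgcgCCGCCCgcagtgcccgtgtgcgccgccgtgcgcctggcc
A match is only a description of letters in the window. The promoters of Dmpk and of the first start of Gng13 held none of the 8 motifs.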

How the data were processed

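RNA from 8 libraries was sequenced. The deposited values are FPKM with 1 column per library, per the file headers, made by the authors with TopHat and Cufflinks on mm9, per the submitters' processing notes. The sources used here do not give versions, strand or further scaling. In the K15-CrePGR table, loci with no gene name held 78.4% to 79.0% of the summed FPKM and were left out. Of rows sharing a symbol, the one with the highest mean was used. All columns matched a sample (0 unused).

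Each table was used alone, with no count model. Values were taken as log2(FPKM + 1), and genes averaging under 1 FPKM were dropped. K15-CrePGR TACs were tested with limma 3.58.1 in R 4.3.3 (empirical Bayes with intensity trend, two-sided, Benjamini-Hochberg over 13565 loci, threshold 0.05), tested on simulated data. HFSC and Shh-CreER tables have 1 library a group and no test. Steps between low FPKM values put depth at about 55.6 M and 47.6 M fragments in HFSC Het and cKO and 28.7 M in each Shh-CreER library. The K15-CrePGR table gave no clear step, with at most 69 of 2369 genes sharing 1 ratio, and its depth is unknown.

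The 7 genes and the lists were chosen with earlier results of these data known. By rule, the text names from the 4 genes of each pathway list with the largest K15-CrePGR difference, direct relatives, the 3 nearest patterns and flanking loci. Other list genes past or near 2-fold, and single marker genes, were named after their values were seen. The counts of 1 pathway list are not reported here. Transcript overlap used GENCODE vM21, and promoters and microRNAs RefSeq tables (GRCm38.p6). Alternatives were other pseudocounts, filters and scalings, summed rows, a fit without trend, and leaving out each K15-CrePGR library in turn. Scripts used Python 3.11.15, numpy 2.4.6, pandas 2.3.3, Biopython 1.88 and matplotlib 3.10.9.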

Additional observations from a re-analysis of the deposited data

Results flagged for a closer look

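For 3 genes of the pathway lists both K15-CrePGR KO libraries were above both WT libraries while the HFSC cKO library was below its control. The mean K15-CrePGR difference and the HFSC difference were each at least 2-fold on FPKM + 1, but single libraries were closer, as for Alox5 in KO 84 and WT 52. Ptgs2, the inducible cyclooxygenase that makes prostaglandins from arachidonic acid, was at 0.426 and 0.220 FPKM in WT 52 and WT 57 and at 4.53 and 0.966 in KO 64 and KO 84, a log2(FPKM + 1) difference of 1.32 (limma, adjusted p = 0.336). In HFSCs it was at 23.3 FPKM in Het and 10.7 in cKO, a difference of -1.05. Alox5, the first enzyme of leukotriene synthesis, was at 1.20 and 0.165 FPKM in WT and 4.06 and 1.24 in KO, a difference of 1.07 (limma, adjusted p = 0.396), and at 2.29 and 0.602 in HFSC Het and cKO, a difference of -1.04. Steap3, a reductase of endosomal iron, was at 3.61 and 3.91 FPKM in WT and 15.8 and 6.07 in KO, a difference of 1.20 (limma, adjusted p = 0.291), and at 8.80 and 3.46 in HFSC Het and cKO, a difference of -1.14. KO 64 was above KO 84 for all 3, and it is the library with the highest sum of immune markers (1215 FPKM, against 35.0 to 216 in the other 3). In HFSCs the immune markers summed to 304 FPKM in Het and 123 in cKO. Their part in these values was not tested. The difference between the populations was not tested for any of the 3.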

How the results depend on the processing

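Among 133 values of single members of the 7 genes under alternatives, 0 were above 0 and 14 were above -1. With a pseudocount of 5, which shrinks low genes most, at least 2-fold lower were 278 genes in HFSCs, 173 in Shh-CreER TACs, 199 in K15-CrePGR TACs and 3 in all 3 tables. Of the 7 genes, 2 remained past 2-fold in HFSCs and 2 in all 3 tables, and their medians became -0.75, -1.58 and -1.11. A pseudocount of 0.1 gave medians of -1.52 in HFSCs and -2.35 in Shh-CreER TACs. Quantile normalization left 6 of the 7 in all 3 tables, with Ovol1 above -1 in Shh-CreER TACs. Leaving out WT 52 left 5 in all 3 tables (without Dmpk at -0.92 and Ovol1 at -0.99), leaving out WT 57 or KO 84 left 6 (without Gng13 at -0.97, or Dmpk at -0.42), and leaving out KO 64 left 7.

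The limma calls in K15-CrePGR TACs, 9 in all, became 21 with a pseudocount of 0.1, 42 with no filter and 15 with a mean of at least 5 FPKM. With a library left out, its group is assumed to vary like the other: 0 were called without WT 52 or without WT 57, 18 without KO 64 and 23 without KO 84. Quantile normalization gave 4 higher and 5 lower, against 5 higher and 4 lower. The cause of these shifts was not tested. No paired analysis was possible because the WT and KO libraries share no replicate number and the other groups hold 1 library each. Depth limits Gng13 most, with about 20.9 fragments in Shh-CreER cKO.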
